A study of Rattus norvegicus with 9 samples.

Results

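Hypoxia-inducible genes are genes whose transcripts accumulate when cells are short of oxygen, and 10 of them were followed here in rat femurs. They were taken by symbol from the gene count table, and each of the 10 had 1 row among 31125. They are Vegfa and Adm (secreted signals), Egln3 (a feedback gene of the oxygen-sensing pathway) and Ankrd37 (a small ankyrin-repeat protein). Also among them are Slc2a1, Pdk1 and Car9 (glucose and acid handling). The others are Bnip3 (mitochondrial turnover), P4ha1 (collagen modification) and Ndrg1 (a stress and differentiation protein). All 10 passed the low-count filter and stood among the 15936 genes tested.

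Bulk RNA was sequenced from femurs of male rats at day 7 in 3 groups of 3 libraries. In the GMTT group the distal femoral growth plate was injured and treated with a hydrogel that the series title describes by the names GelMa, TPGS and tea polyphenols. The GPI group had the injury without the gel, and the Sham group had sham surgery. All GMTT and GPI rats therefore carry the injury, although the labels also call the growth plate of GMTT femurs intact, and no group with the gel base alone was analysed here. The sources used here give neither the strain, nor the age, nor any pooling of tissue, nor how much muscle and marrow was kept on the bone.

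Cells sense oxygen through hypoxia-inducible factor (HIF), a pair of proteins made of an oxygen-labile alpha subunit and the stable partner ARNT. Where oxygen is present, prolyl hydroxylases of the EGLN family mark the alpha subunit, the VHL ubiquitin ligase binds the mark, and the subunit is destroyed. Where oxygen is short, the alpha subunit persists and the pair binds a short DNA element, with the core ACGTG or GCGTG, near its target genes. Growth plate cartilage has no blood vessels and depends on HIF during growth, bone marrow is a poorly oxygenated tissue, and working skeletal muscle uses several of the same genes for energy supply. A transcript level does not measure oxygen or HIF protein, neither of which was measured here.

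The letters of this core were looked for in the windows around the start sites of the 10 genes, to show what sequence the members carry beside how they moved. Of the 10, 9 had windows of 300 bases (250 before to 50 after the gene's start) in the RefSeq table of the GRCr8 build. That build differs from mRatBN7.2, the build of the count table, so the coordinates in this paragraph and the lines below are GRCr8 only. Of these 9 genes, 6 held ACGTG or GCGTG on either strand, and 41.6% of all 33469 windows in the table held it too. Slc2a1, Bnip3 and Pdk1 held 4 matches each, Ankrd37 held 5, P4ha1 held 3 and Car9 held 1, where a CACGTG counts on both strands. No match lay in the windows of Vegfa, Egln3 and Adm, which says only that these letters are not in those windows. The 250 bases upstream of Bnip3 (chr1:203154963-203155212, minus strand) and Ankrd37 (chr16:53001257-53001506, plus strand) are printed because both hold the core several times, and the 2 genes moved in opposite directions in the injured femurs. Stretches of 30 bases around a match are printed for Slc2a1 (chr5:138002458-138002487, plus strand), Car9 (chr5:62559012-62559041, plus strand), Pdk1 (chr3:77113522-77113551, plus strand) and P4ha1 (chr20:27845044-27845073, plus strand). Sequences run 5′ to 3′, and capitals mark the core or its reverse complement. The last letters of the Ankrd37 stretch run on into a match that crosses the start.
Bnip3: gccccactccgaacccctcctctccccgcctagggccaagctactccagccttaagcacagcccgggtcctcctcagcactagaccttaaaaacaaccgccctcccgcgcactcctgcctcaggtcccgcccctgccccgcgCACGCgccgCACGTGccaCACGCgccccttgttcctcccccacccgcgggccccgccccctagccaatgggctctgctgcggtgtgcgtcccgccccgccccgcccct
Ankrd37: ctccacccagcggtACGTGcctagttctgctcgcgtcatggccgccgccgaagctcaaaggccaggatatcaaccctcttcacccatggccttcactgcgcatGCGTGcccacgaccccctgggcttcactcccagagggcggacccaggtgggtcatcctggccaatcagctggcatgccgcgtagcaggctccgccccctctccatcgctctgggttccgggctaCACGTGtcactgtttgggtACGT
Slc2a1: agtcccgccccggACGTGgtcctcaggccc
Car9: cttatttccgatgCACGTacagcccgtcca
Pdk1: cgccgcggcccgcCACGTcccgCACGTaga
P4ha1: gtgtgactgagcgCACGTagcgagagctgt

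Libraries held 15927429 to 19715997 counts. Skeletal muscle markers (16 of 18 listed were in the table) took 2.59 to 2.76% of counts in GMTT libraries, 14.1 to 14.3% in GPI libraries and 0.274 to 0.289% in Sham libraries, and none was at 0 in any group. The 13 mitochondrially encoded protein genes took 5.73 to 6.41% in GMTT, 25.4 to 26.9% in GPI and 3.65 to 4.02% in Sham. Erythroid markers (13 of 15 in the table) took 4.22 to 4.63% in GMTT, 0.127 to 0.138% in GPI, where Slc14a1 was at 0, and 7.88 to 8.83% in Sham. The 12 neutrophil markers took 1.26 to 1.31% in GMTT, 0.000740 to 0.000837% in GPI and 1.04 to 1.12% in Sham. The 11 chondrocyte markers of the growth plate took 0.0387 to 0.0413% in GMTT, 0.0212 to 0.0213% in GPI and 0.0257 to 0.0273% in Sham, with Cnmd at 0 in the GMTT and Sham libraries. On the TMM scale explained below the order of these markers turned, with summed levels of 298 to 322 CPM in GMTT, 350.5 to 354 CPM in GPI and 201 to 213 CPM in Sham. These sums hide markers that went both ways on that scale. In GMTT against Sham the 9 tested ran from -2.53 (Col2a1) to 1.57 (Comp) in log2 fold change, with a median of -0.24. In GPI against Sham they ran from -2.78 (Matn3) to 3.05 (Col10a1), with a median of 0.80. The muscle, mitochondrial, erythroid and neutrophil shares above set the GPI libraries apart from the others, as did the genes below. In the chondrocyte shares GPI lay nearer to Sham than GMTT did. In bulk RNA fewer cells of a type and less RNA per cell cannot be told apart. The part of these shares in the results below was not tested.

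Values below are CPM (counts scaled to library size) with TMM factors, which assume that most genes change little between libraries. Fold changes are log2 with their standard error (SE). Tests are edgeR's quasi-likelihood test, and a gene counted as called where its p, adjusted by Benjamini-Hochberg over the 15936 genes, was below 0.05. The scaling matters in these data. Under TMM itself 88.2% of genes were called in GPI against Sham, with 26.7% rising and 31.6% falling at least 2-fold. In GMTT against GPI 85.9% were called, with 28.6% rising and 24.4% falling at least 2-fold. The assumption was thus not met in these 2 comparisons, and which scaling lies nearer the truth was not tested. Scaling by library totals alone moved the median log2 fold change of all genes to -1.28, against -0.19 under TMM, in GPI against Sham, and to 1.22, against 0.12 under TMM, in GMTT against GPI. In GMTT against Sham these medians were 0.0065 and -0.0031. The 3 comparisons share libraries with each other, so their values are given side by side and are not independent of each other.

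Under TMM, the hypoxia-inducible genes moved in both directions in the injured femurs without gel, as all genes tested did. Compared with Sham, 6 of the 10 rose, namely Bnip3 (37.6-fold), Vegfa (27.1-fold), Egln3 (7.56-fold), Pdk1 (6.49-fold), Adm (2.66-fold) and P4ha1 (2.04-fold). The other 4 fell, namely Car9 (2.78-fold lower), Ankrd37 (1.96-fold lower), Ndrg1 (1.62-fold lower) and Slc2a1 (1.53-fold lower). Of all genes tested, 88.2% were called in this comparison, 40.1% higher and 48.1% lower, so being called sets a gene little apart. Under TMM, 6 rose at least 2-fold, against 26.7% of all genes, and 1, Car9, fell at least 2-fold, against 31.6% of all genes. With library totals alone 4 rose (Vegfa, Bnip3, Egln3 and Pdk1) and all 4 of the lower genes fell by that size. Scaled by library totals alone, 4 rose and 4 fell, P4ha1 turned to -0.062 (adjusted p = 0.317) and Adm lost its call (0.33, adjusted p = 0.31). Of all 15936 genes, 3521 were called higher and 11210 lower under that scaling. The share of all genes past 2-fold was not counted there. Under TMM the median log2 fold change of the 10 genes was 1.22, beside -0.19 for all genes.

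In GMTT femurs the members that stood highest in GPI were much lower, and most of those that were low in GPI were higher. Compared with GPI, 6 of the 10 fell in GMTT femurs: Bnip3 (13.7-fold lower), Vegfa (12.5-fold lower), Egln3 (4.57-fold lower), Pdk1 (4.42-fold lower), Adm (1.79-fold lower) and P4ha1 (1.61-fold lower). Car9 (2.93-fold), Slc2a1 (2.27-fold) and Ndrg1 (2.05-fold) rose, and Ankrd37 did not pass the test (log2 fold change 0.69, SE 0.36, adjusted p = 0.0757). Of all genes, 85.9% were called here, 45.7% higher and 40.2% lower. At least 2-fold changes were 3 rises and 4 falls among the members, against 28.6% and 24.4% of all genes, and 4 rises and 4 falls with library totals alone. Scaled by library totals alone, 5 members rose and 4 fell, because P4ha1 turned to 0.42 (adjusted p = 6.76e-08) and Ankrd37 was called at 1.78 (adjusted p = 1.87e-05), while Adm turned to 0.26 without a call (adjusted p = 0.382). Of all 15936 genes, 11503 were called higher and 3016 lower under that scaling. The share of all genes past 2-fold was not counted there. Under TMM the median of the 10 genes was -0.76, beside 0.12 for all genes.

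GMTT femurs were still not at the Sham level. Compared with Sham, 7 of the 10 genes rose: Bnip3 (2.74-fold), Vegfa (2.16-fold), Egln3 (1.65-fold), Slc2a1 (1.48-fold), Pdk1 (1.47-fold), Ndrg1 (1.27-fold) and P4ha1 (1.27-fold). Ankrd37, Car9 and Adm did not pass the test. Among all genes, 57.8% were called, 29.5% higher and 28.3% lower, and 9.19% rose and 2.44% fell at least 2-fold. Bnip3 and Vegfa were the members past that size, both higher. Slc2a1 and Ndrg1 thus lay lower in GPI and higher in GMTT than in Sham, and each of these calls held under both scalings. The median of the 10 genes was 0.56, beside -0.0031 for all genes.

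**Figure D1:**
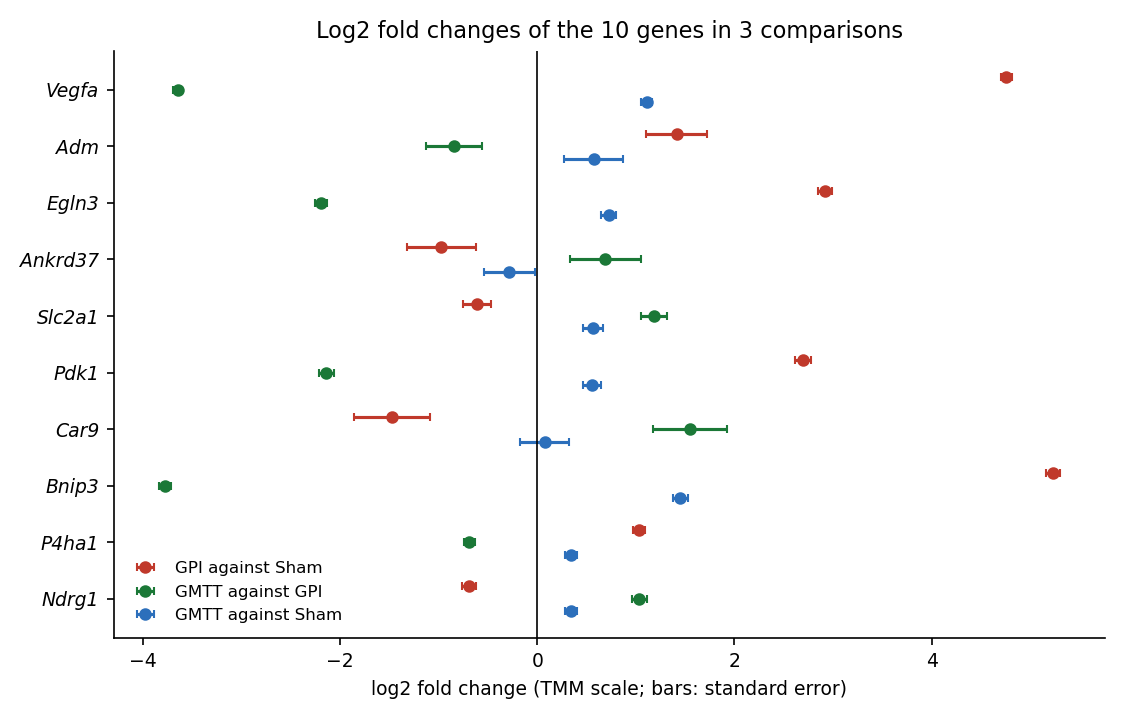
Log2 fold changes of the 10 hypoxia-inducible genes (x axis, TMM scale) with bars for the standard error, from a model of 3 libraries per group. Bnip3 and Vegfa reach 5.23 and 4.76 in GPI against Sham and -3.78 and -3.65 in GMTT against GPI, while Car9, Ankrd37, Ndrg1 and Slc2a1 lie on the other side of 0 in both.

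Vegfa encodes the vascular endothelial growth factor that draws vessels into hypertrophic cartilage and supports capillaries in muscle. It is ENSRNOG00000019598, a protein-coding gene on the plus strand of chromosome 9, from 14955300 to 14970641 (mRatBN7.2, as are the member coordinates that follow). Its levels were 56.7, 55.5 and 55.5 CPM in GMTT libraries, 707, 701 and 698 CPM in GPI libraries, and 24.9, 26.6 and 26.2 CPM in Sham libraries. Every GPI library stood above every GMTT library, and every GMTT library above every Sham library. The means were 55.9 ± 0.686 CPM in GMTT, 702 ± 4.51 CPM in GPI and 25.9 ± 0.884 CPM in Sham (SD, n = 3 each). The log2 fold change was 4.76 (SE 0.05, adjusted p = 1.37e-36) in GPI against Sham, -3.65 (SE 0.05, adjusted p = 5.3e-34) in GMTT against GPI and 1.11 (SE 0.05, adjusted p = 4.66e-18) in GMTT against Sham. Its fold change in GPI against Sham stood at percentile 95.7 of all genes tested. Counts were summed per gene, so its splice forms are not told apart.

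Adm encodes adrenomedullin, a peptide that widens vessels and acts on endothelium. It is ENSRNOG00000027030 on the plus strand of chromosome 1, from 164745466 to 164747654. It was a low gene, with 17 to 33 counts in GMTT libraries, 18 to 23 in GPI libraries and 13 to 18 in Sham libraries. On the CPM scale these were 1.41, 0.747 and 0.922 in GMTT, 1.95, 1.51 and 2.12 in GPI, and 0.881, 0.563 and 0.644 in Sham. The GPI libraries lay above all others, while GMTT and Sham overlapped. Adm rose in GPI against Sham (log2 fold change 1.41, SE 0.31, adjusted p = 9.35e-05) and fell in GMTT against GPI (-0.84, SE 0.28, adjusted p = 0.00693), and neither call held with library totals alone, as given above. The raw counts of the GPI and GMTT libraries covered much the same range, so the CPM difference rests on the TMM factors of 0.600 to 0.604 in GPI and 1.28 to 1.30 in GMTT. In GMTT against Sham it was 0.57 (SE 0.30, adjusted p = 0.104).

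**Figure D2:**
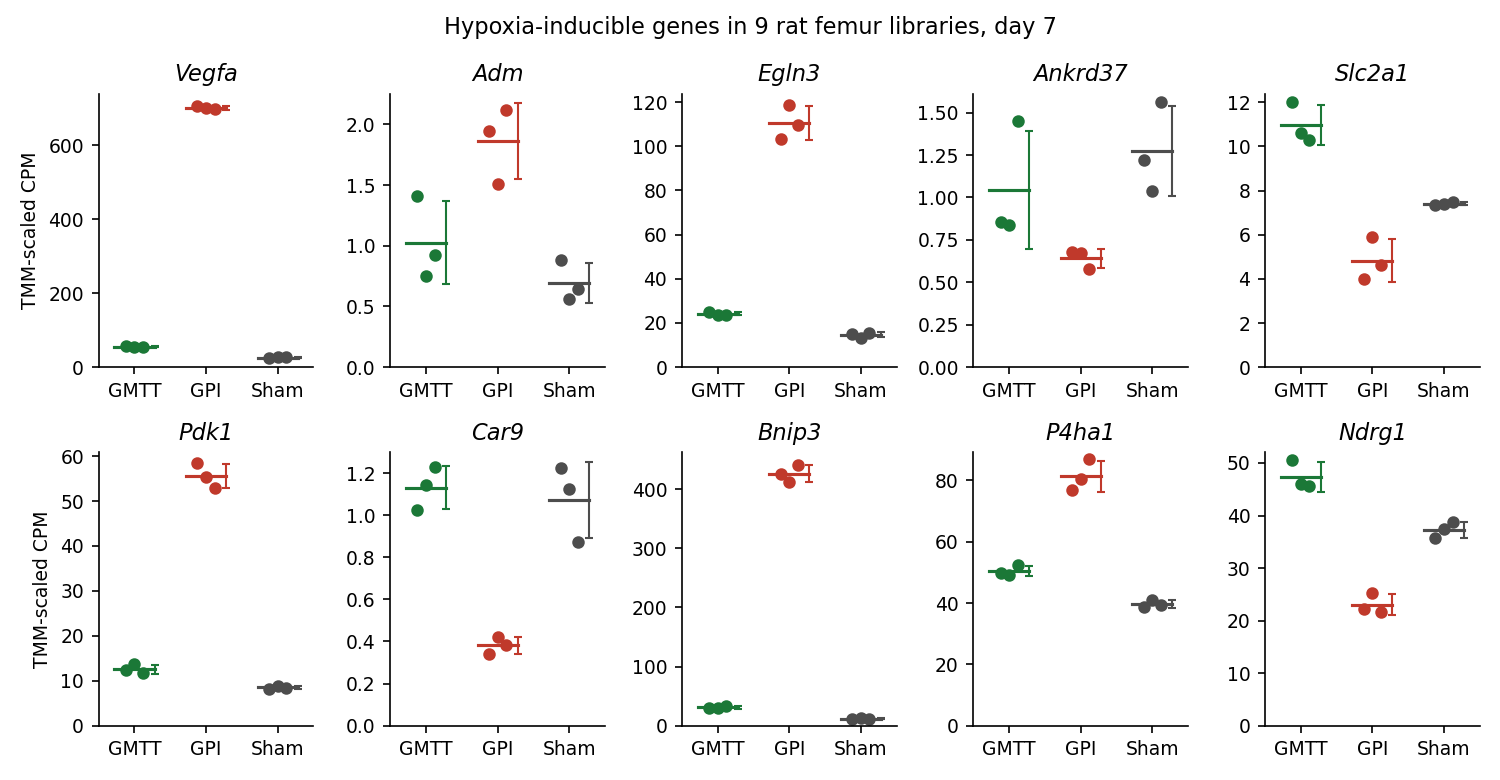
TMM-scaled CPM (y axes, linear from 0, each panel with its own scale) of the 10 genes in each of the 3 GMTT, 3 GPI and 3 Sham libraries, with points for libraries, a horizontal line for the mean and error bars for the SD. The GPI libraries stand highest for Vegfa, Bnip3, Egln3, Pdk1, Adm and P4ha1 and lowest for Slc2a1, Ankrd37, Car9 and Ndrg1.

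Egln3 encodes PHD3, the HIF prolyl hydroxylase that is itself strongly induced by hypoxia and so feeds back on the alpha subunits. It is ENSRNOG00000005053 on the minus strand of chromosome 6, from 71650297 to 71675766. It reached 25.1, 23.8 and 23.7 CPM in GMTT libraries, 103, 119 and 109.8 CPM in GPI libraries, and 15.0, 13.3 and 15.6 CPM in Sham libraries. The 3 groups did not overlap. The log2 fold change was 2.92 (SE 0.07, adjusted p = 1.66e-27) in GPI against Sham, -2.19 (SE 0.06, adjusted p = 8.78e-25) in GMTT against GPI and 0.72 (SE 0.08, adjusted p = 9.01e-10) in GMTT against Sham.

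Ankrd37 encodes a small ankyrin-repeat protein known as a sensitive HIF target in cultured human cells. It is ENSRNOG00000031335 on the plus strand of chromosome 16, from 46268443 to 46271963. Its counts were 20, 19 and 33 in GMTT libraries, 8, 8 and 6 in GPI libraries, and 25, 24 and 34 in Sham libraries. These are 0.854, 0.835 and 1.45 CPM in GMTT, 0.677, 0.672 and 0.578 CPM in GPI, and 1.22, 1.04 and 1.56 CPM in Sham. The GPI libraries were the lowest 3 of the 9, and the GMTT and Sham libraries overlapped. Ankrd37 fell in GPI against Sham (-0.97, SE 0.35, adjusted p = 0.0111), but without Sham replicate 3 the adjusted p was 0.0509 and the log2 fold change -0.81. In GMTT against GPI the call depended on the libraries: it was missed with all 9, and it passed without GMTT replicate 1 (0.83, adjusted p = 0.0476) or without GMTT replicate 2 (0.83, adjusted p = 0.0453). In GMTT against Sham the log2 fold change was -0.28 (SE 0.26, adjusted p = 0.362).

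Slc2a1 encodes GLUT1, the glucose transporter that most cells use for basal uptake. It is ENSRNOG00000007284 on the plus strand of chromosome 5, from 132717196 to 132745416. Its levels were 12.0, 10.6 and 10.3 CPM in GMTT libraries, 3.98, 5.88 and 4.62 CPM in GPI libraries, and 7.34, 7.41 and 7.49 CPM in Sham libraries. The groups did not overlap, with GMTT highest and GPI lowest. Slc2a1 fell in GPI against Sham (-0.62, SE 0.14, adjusted p = 0.000178), rose in GMTT against GPI (1.18, SE 0.13, adjusted p = 1.04e-09) and rose in GMTT against Sham (0.56, SE 0.11, adjusted p = 3.22e-05).

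Pdk1 encodes a pyruvate dehydrogenase kinase, which holds pyruvate back from oxidation in the mitochondria by switching off pyruvate dehydrogenase. It is ENSRNOG00000001517 on the plus strand of chromosome 3, from 56705871 to 56733038. Its levels were 12.5, 13.7 and 11.6 CPM in GMTT libraries, 58.4, 55.3 and 53.0 CPM in GPI libraries, and 8.27, 8.92 and 8.46 CPM in Sham libraries. The 3 groups were apart in every library, with GPI highest and Sham lowest. The log2 fold change was 2.70 (SE 0.08, adjusted p = 1.01e-24) in GPI against Sham, -2.14 (SE 0.08, adjusted p = 1.33e-22) in GMTT against GPI and 0.56 (SE 0.09, adjusted p = 3.81e-06) in GMTT against Sham. Slc2a1 and Pdk1, which act at successive stages of glucose use, therefore moved in opposite directions in both comparisons with GPI libraries.

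Car9 encodes carbonic anhydrase 9, a surface enzyme that exports acid and is a widely used tissue marker of hypoxia. It is ENSRNOG00000017073 on the plus strand of chromosome 5, from 57763206 to 57769838. Only 24, 26 and 28 counts were recorded in GMTT libraries, 4, 5 and 4 in GPI libraries, and 25, 26 and 19 in Sham libraries. In CPM these were 1.02, 1.14 and 1.23 in GMTT, 0.339, 0.420 and 0.385 in GPI, and 1.22, 1.13 and 0.874 in Sham. The GPI libraries lay below all others, and GMTT and Sham overlapped. Car9 fell in GPI against Sham (-1.48, SE 0.38, adjusted p = 0.000722) and rose in GMTT against GPI (1.55, SE 0.38, adjusted p = 0.000368), and in GMTT against Sham it was 0.08 (SE 0.25, adjusted p = 0.807).

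Bnip3 encodes a mitochondrial outer membrane protein of the BCL2 family that marks mitochondria for removal by autophagy. It is ENSRNOG00000017243 on the minus strand of chromosome 1, from 193708167 to 193725359. Its levels were 30.0, 29.1 and 34.1 CPM in GMTT libraries, 426, 413 and 441 CPM in GPI libraries, and 10.6, 12.2 and 11.2 CPM in Sham libraries. No library of one group reached the range of another. The log2 fold change was 5.23 (SE 0.07, adjusted p = 8.29e-35) in GPI against Sham, -3.78 (SE 0.06, adjusted p = 3.68e-32) in GMTT against GPI and 1.45 (SE 0.07, adjusted p = 2.02e-17) in GMTT against Sham. It had the largest fold change of the 10 genes in each of the 3 comparisons, at percentile 96.5 of all genes in GPI against Sham.

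P4ha1 encodes the catalytic alpha subunit of collagen prolyl 4-hydroxylase, which stabilises the collagen triple helix. It is ENSRNOG00000050655 on the plus strand of chromosome 20, from 27302141 to 27352786. Its levels were 49.9, 49.3 and 52.3 CPM in GMTT libraries, 76.9, 80.5 and 86.9 CPM in GPI libraries, and 38.8, 41.1 and 39.4 CPM in Sham libraries. The groups did not overlap on this scale. The raw counts were 1169, 1122 and 1192 in GMTT, 908, 958 and 902 in GPI, and 792, 950 and 856 in Sham, where GPI lay below GMTT and overlapped Sham. P4ha1 rose in GPI against Sham (1.03, SE 0.06, adjusted p = 6.81e-17) and fell in GMTT against GPI (-0.69, SE 0.06, adjusted p = 1.44e-12) under TMM, and both signs turned under library totals alone (-0.062 and 0.42). It rose in GMTT against Sham (0.34, SE 0.06, adjusted p = 7.1e-06) under both scalings.

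Ndrg1 encodes a cytoplasmic protein of the NDRG family, induced by hypoxia and by differentiation. It is ENSRNOG00000007393 on the minus strand of chromosome 7, from 98684487 to 98725880. Its levels were 50.6, 45.9 and 45.6 CPM in GMTT libraries, 22.2, 25.3 and 21.7 CPM in GPI libraries, and 35.7, 37.4 and 38.8 CPM in Sham libraries. The groups were apart, GMTT being highest and GPI lowest. Ndrg1 fell in GPI against Sham (-0.69, SE 0.08, adjusted p = 4.56e-10), rose in GMTT against GPI (1.04, SE 0.07, adjusted p = 1.73e-14) and rose in GMTT against Sham (0.34, SE 0.06, adjusted p = 2.2e-05).

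For each of the 10 genes the GPI and Sham libraries did not overlap, which held for 88.3% of all genes tested, and the GMTT and GPI libraries did not overlap either, which held for 86.2% of all genes. In GMTT against Sham they did not overlap for 7 of the 10 (Ankrd37, Car9 and Adm overlapped), against 61.7% of all genes.

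**Figure D3:**
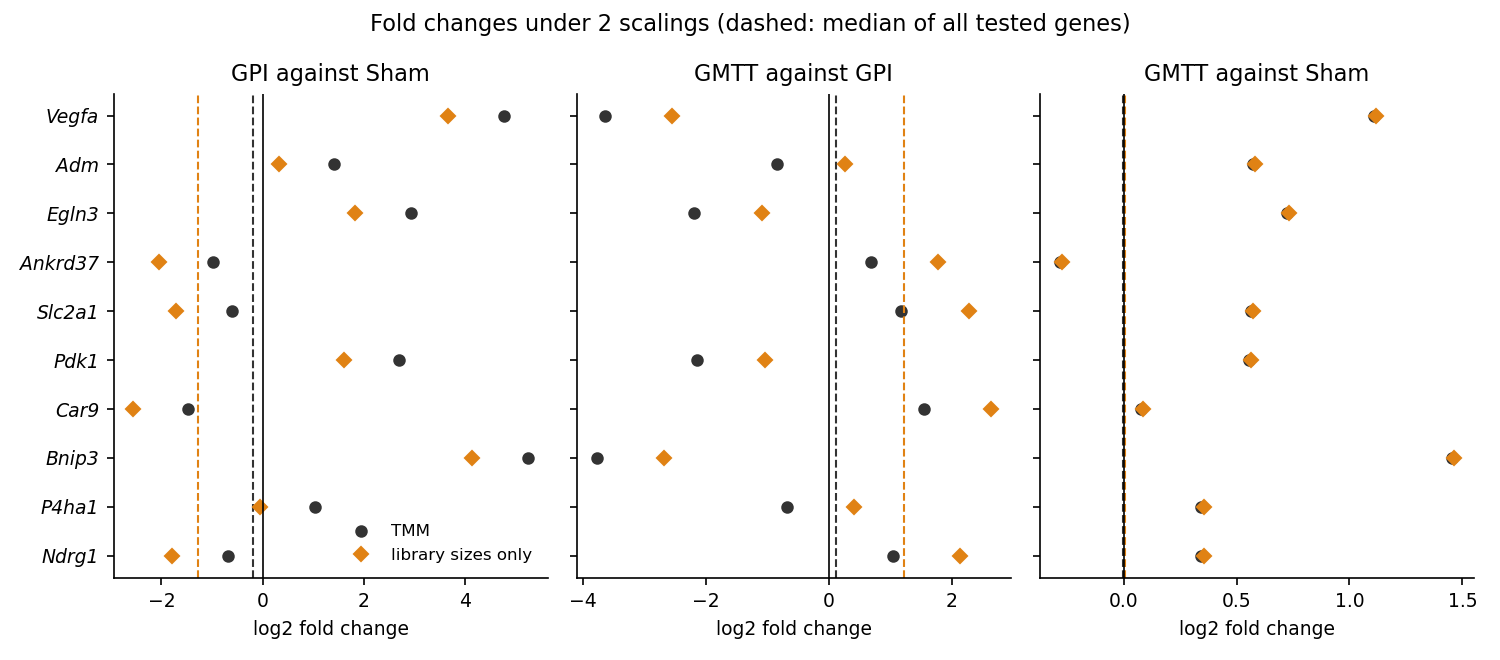
Log2 fold changes (x axes) of the 10 genes under TMM (circles) and under library totals alone (diamonds), with the median of all tested genes under each scaling as a dashed line, in the 3 comparisons. P4ha1 crosses 0 in GPI against Sham (1.03 and -0.062) and in GMTT against GPI (-0.69 and 0.42), and Adm crosses it in GMTT against GPI (-0.84 and 0.26).

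Levels of different genes were set side by side on the authors' FPKM, which divides by gene length. The order of the members changed between groups. In GMTT femurs Ndrg1 (15.0 ± 0.948 FPKM) and Vegfa (14.8 ± 0.233 FPKM) overlapped at the top, P4ha1 followed at 11.1 FPKM, and Bnip3 (8.70), Egln3 (8.56) and Pdk1 (7.95 FPKM) came next as neighbours that overlapped. In GPI femurs Vegfa (186 ± 0.937 FPKM) led, before Bnip3 (119.5 ± 4.66 FPKM), then Egln3 (39.1) and Pdk1 (35.1 FPKM), which overlapped, P4ha1 (17.8) and Ndrg1 (7.30 FPKM). In Sham femurs Ndrg1 (11.6 FPKM) led, before P4ha1 (8.52), Vegfa (6.73), then Pdk1 (5.29) and Egln3 (5.07), which overlapped, and Bnip3 (3.11 FPKM). Slc2a1 came seventh in every group, at 4.12 FPKM in GMTT, 1.81 FPKM in GPI and 2.73 FPKM in Sham. Adm, Ankrd37 and Car9 filled the last 3 places in every group. Neighbours among them overlapped in GMTT (0.729, 0.671 and 0.537 FPKM). In GPI Adm overlapped Slc2a1 at 1.32 FPKM, above Ankrd37 (0.413) and Car9 (0.181 FPKM). In Sham Ankrd37 stood at 0.802 FPKM, above Car9 and Adm (0.499 and 0.484 FPKM), which overlapped.

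Several of these genes have close relatives with tissue-typical expression, and some relatives moved apart from the member. Of 22 tested relatives, 14 rose and 6 fell in GPI against Sham (median log2 fold change 1.80), 7 rose and 13 fell in GMTT against GPI (median -1.71), and 15 rose and 4 fell in GMTT against Sham (median 0.65). Of all genes tested, 40.1% were called higher and 48.1% lower in GPI against Sham. These shares were 45.7% and 40.2% in GMTT against GPI, and 29.5% and 28.3% in GMTT against Sham. Scaled by library totals alone, 11 relatives rose and 8 fell in GPI against Sham, where 23.9% of all called genes were higher. In GMTT against GPI 10 rose and 11 fell under that scaling, where 79.2% of all called genes were higher.

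The glucose transporters moved in opposite directions. Slc2a4, the insulin-regulated GLUT4 of muscle and fat, averaged 22.1 ± 0.778 FPKM in GMTT, 273 ± 8.96 FPKM in GPI and 4.84 ± 0.228 FPKM in Sham. Slc2a3, the high-affinity GLUT3, averaged 31.3 ± 0.563 FPKM in GMTT, 3.97 ± 0.362 FPKM in GPI and 26.7 ± 0.0492 FPKM in Sham (SD, n = 3 each). Slc2a4 thus rose in GPI against Sham (5.79, SE 0.06) and fell in GMTT against GPI (-3.63, SE 0.05), whereas Slc2a3 fell (-2.79, SE 0.07) and rose (2.99, SE 0.07), as Slc2a1 did. Per gene length, Slc2a3 was the highest of the 3 transporters in GMTT and Sham, and Slc2a4 in GPI.

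Pyruvate dehydrogenase kinases divided in a similar way. Pdk4, which is prominent in muscle and in fasting, averaged 14.2 ± 1.55 FPKM in GMTT, 669 ± 20.6 FPKM in GPI and 2.28 ± 0.181 FPKM in Sham, with a log2 fold change of 8.16 (SE 0.08) in GPI against Sham and -5.56 (SE 0.06) in GMTT against GPI. Pdk2, the broadly expressed form, averaged 14.9 FPKM in GMTT, 138 FPKM in GPI and 4.28 FPKM in Sham. Pdk3 went the other way, at 23.5 ± 1.05 FPKM in GMTT, 3.00 ± 0.349 FPKM in GPI and 26.1 ± 0.969 FPKM in Sham. Per gene length, Pdk1 thus stood below Pdk4 and Pdk2 in GPI femurs.

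Bnip3l, the relative of Bnip3 that clears mitochondria from maturing red cells, ran opposite to it. It averaged 58.8 ± 3.54 FPKM in GMTT, 12.9 ± 0.140 FPKM in GPI and 106 ± 4.08 FPKM in Sham, against 8.70, 119.5 and 3.11 FPKM for Bnip3 in the same groups. It fell in GPI against Sham (-3.07, SE 0.05), rose in GMTT against GPI (2.19, SE 0.05) and fell in GMTT against Sham (-0.88, SE 0.05). Erythroid markers moved with it, 12 of 13 tested falling in GPI against Sham and 12 of 13 rising in GMTT against GPI. In the same comparisons all 11 tested neutrophil, 12 monocyte and macrophage and 8 B cell markers also fell and rose. Of 10 osteoblast markers 9 fell and 10 rose, and of 8 osteoclast markers 7 fell and 8 rose. Of all genes, 48.1% were called lower in GPI against Sham and 45.7% higher in GMTT against GPI. All 16 tested muscle markers moved with Bnip3, Vegfa and the other members that rose in GPI, with a median log2 fold change of 6.52 in GPI against Sham, -3.50 in GMTT against GPI and 3.21 in GMTT against Sham. The 13 mitochondrially encoded genes all rose in GPI against Sham and fell in GMTT against GPI, as did 10 of 11 endothelial markers. Of 8 adipocyte markers, 7 rose and 1 fell in GPI against Sham, and 1 rose and 6 fell in GMTT against GPI. With library totals alone 6 rose and 2 fell, then 5 rose and 2 fell, where 23.9% and 79.2% of all called genes were higher. Under TMM 40.1% of all genes were called higher in GPI against Sham and 40.2% lower in GMTT against GPI. The part of any of these cell types in these values was not tested.

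Other carbonic anhydrases had larger fold changes than Car9 in GPI against Sham, though the differences between genes were not tested. Car2, the cytosolic form of red cells and osteoclasts, averaged 1063 ± 33.5 CPM in GMTT, 16.4 ± 1.33 CPM in GPI and 2029 ± 64.5 CPM in Sham. Car3, the muscle and fat form, averaged 686 ± 12.9 CPM in GMTT, 5488 ± 87.7 CPM in GPI and 119 ± 1.75 CPM in Sham. Car4, Car12 and Car14 rose in GPI against Sham (5.60, 4.45 and 4.56) and fell in GMTT against GPI (-4.58, -4.41 and -3.36). Car12, itself a hypoxia-inducible surface enzyme, was thus on the opposite side from Car9.

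Among the other families, Vegfb, a growth factor of muscle and heart, followed Vegfa, at 15.2 ± 1.57 CPM in GMTT, 119 ± 4.36 CPM in GPI and 7.05 ± 0.708 CPM in Sham. Vegfc, which acts on lymphatic vessels, fell in GPI against Sham (-0.73, SE 0.18) and rose in GMTT against GPI (0.64, SE 0.18). P4ha2, the second collagen hydroxylase subunit, rose in GPI against Sham (2.77, SE 0.08), as P4ha1 did under TMM, while their partner P4hb fell (-0.45, SE 0.04). Ndrg2, which is abundant in muscle and brain, averaged 116 ± 4.65 CPM in GMTT, 1599 ± 57.8 CPM in GPI and 26.2 ± 0.984 CPM in Sham. It rose 5.93 (SE 0.06) on the log2 scale in GPI against Sham, where Ndrg1 fell.

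**Figure D4:**
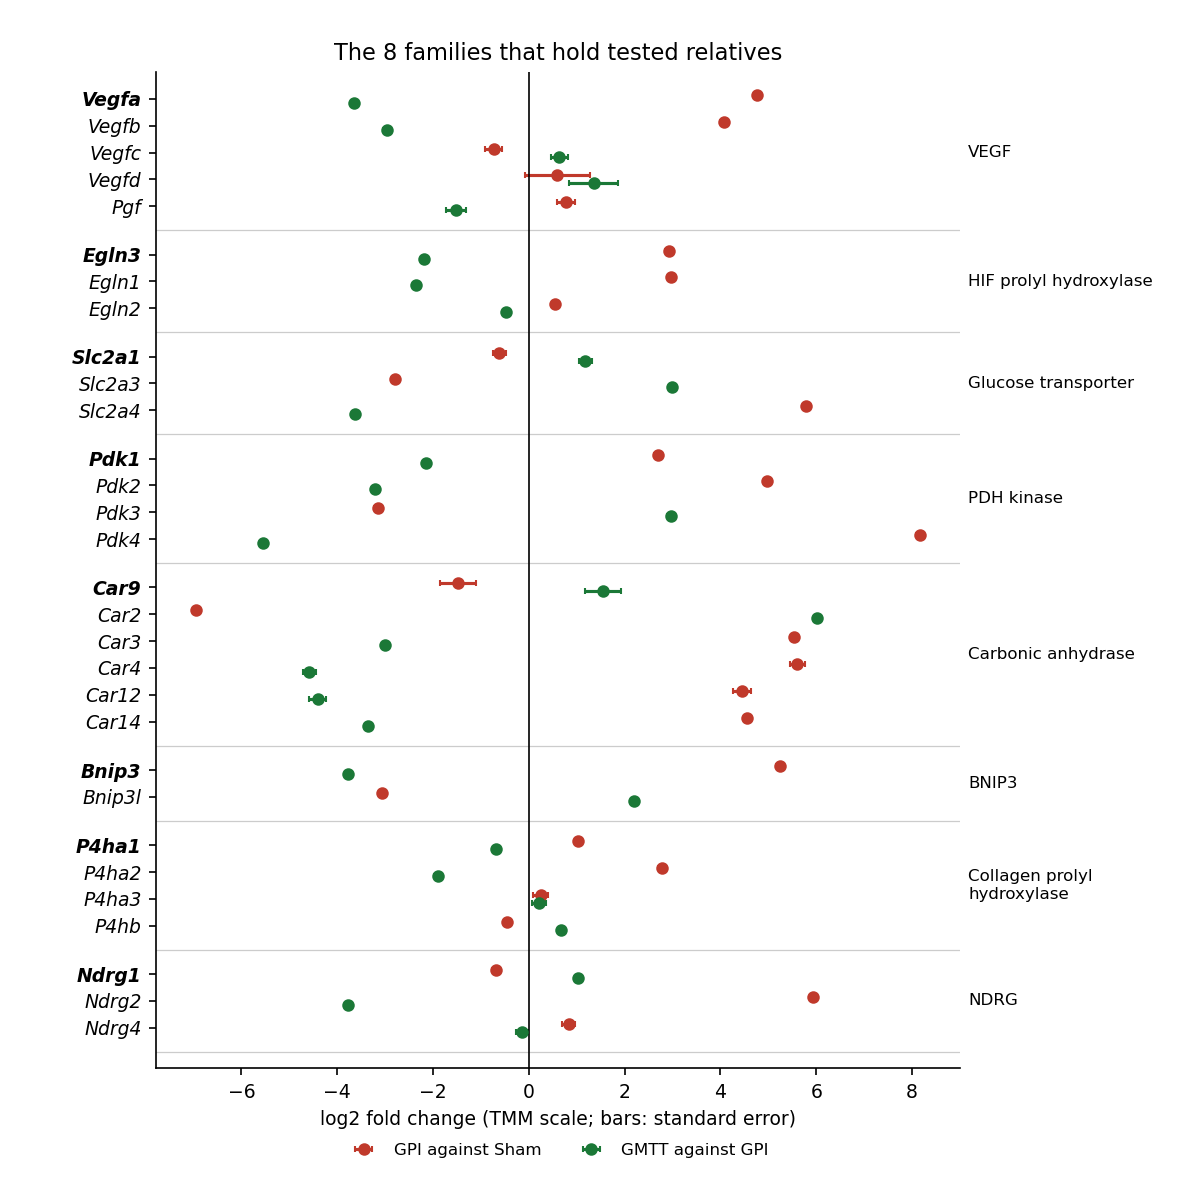
Log2 fold changes (x axis, TMM scale, bars for the standard error) of 8 members (bold) and their tested relatives, grouped by family, in GPI against Sham and GMTT against GPI. Slc2a4 (5.79), Pdk4 (8.16), Car3 (5.53) and Ndrg2 (5.93) lie to the right in GPI against Sham, and Slc2a3 (-2.79), Pdk3 (-3.14), Car2 (-6.96) and Bnip3l (-3.07) to the left.

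The genes that set the HIF response were then followed. Of 15 tested regulators, 9 rose and 4 fell in GPI against Sham (median 0.23), 5 rose and 9 fell in GMTT against GPI (median -0.37), and 4 rose and 3 fell in GMTT against Sham (median 0.05). Of all genes tested, 40.1% were called higher and 48.1% lower in GPI against Sham. These shares were 45.7% and 40.2% in GMTT against GPI, and 29.5% and 28.3% in GMTT against Sham. Scaled by library totals alone, 5 regulators rose and 10 fell in GPI against Sham, where 23.9% of all called genes were higher. In GMTT against GPI 10 rose and 5 fell under that scaling, where 79.2% of all called genes were higher. Among those described below, the alpha subunits Hif3a and Epas1 and the sensors Egln1 and Hif1an had larger fold changes than Hif1a under TMM in both comparisons with GPI.

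Hif1a, the broadly expressed alpha subunit, averaged 78.1 ± 4.08 CPM in GMTT, 74.1 ± 1.41 CPM in GPI and 60.7 ± 4.50 CPM in Sham. It rose in GPI against Sham under TMM (0.29, SE 0.06), a sign that turned with library totals alone (-0.81), and it did not pass the test in GMTT against GPI (0.08, SE 0.06, adjusted p = 0.23). Its activity is set mainly by protein stability, which RNA does not show. Epas1, the HIF2 alpha subunit found in endothelium among other cells, averaged 88.1 ± 2.79 CPM in GMTT, 595 ± 18.5 CPM in GPI and 55.0 ± 0.612 CPM in Sham. It rose in GPI against Sham (3.44, SE 0.05), fell in GMTT against GPI (-2.76, SE 0.05) and rose in GMTT against Sham (0.68, SE 0.05). Hif3a, a subunit with inhibitory forms, rose in GPI against Sham (3.90, SE 0.51) and fell in GMTT against GPI (-3.28, SE 0.46). The partner Arnt stayed within 0.23 of 0 in every comparison under TMM, and its sign turned with library totals alone in both comparisons with GPI.

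Egln1, which encodes PHD2, the main sensor of HIF1 alpha, averaged 31.8 ± 1.70 CPM in GMTT, 163 ± 4.83 CPM in GPI and 21.0 ± 0.846 CPM in Sham. It rose in GPI against Sham (2.96, SE 0.06) by much the same amount as Egln3 (2.92, SE 0.07), and both fell in GMTT against GPI. Egln2 rose in GPI against Sham by 0.55 (SE 0.07) under TMM, which turned to -0.55 with library totals alone. Hif1an, the asparagine hydroxylase that blocks HIF from its co-activators, rose in GPI against Sham (1.69, SE 0.05) and fell in GMTT against GPI (-1.78, SE 0.05). Vhl fell in GPI against Sham (-0.28, SE 0.08) and rose in GMTT against GPI (0.25, SE 0.08).

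**Figure D5:**
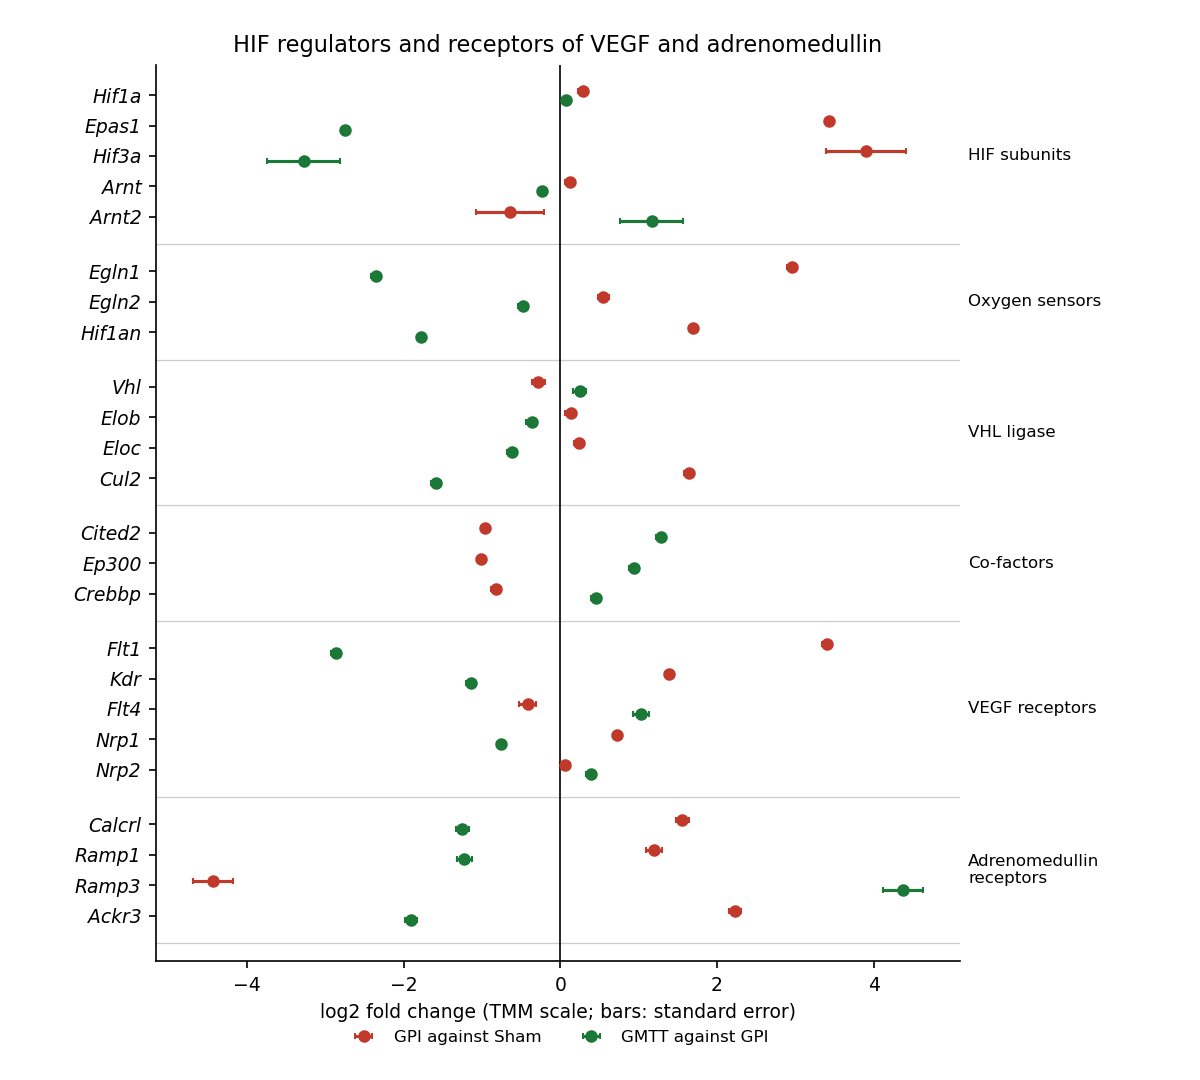
Log2 fold changes (x axis, TMM scale, bars for the standard error) of 15 HIF regulators and 9 genes listed as receptors of VEGF and adrenomedullin (Ramp1 included) in GPI against Sham and GMTT against GPI. Epas1 (3.44), Hif3a (3.90), Egln1 (2.96) and Flt1 (3.40) lie to the right in GPI against Sham, Ramp3 (-4.44) lies to the left, and Hif1a (0.29) lies near 0.

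Genes listed as receptors for the secreted members and their relatives, Ramp1 among them, were 9 tested. Of these, 6 were higher and 2 lower in GPI against Sham (median 1.19), and 3 higher and 6 lower in GMTT against GPI (median -1.15). With library totals alone this lean was gone: 4 were higher and 4 lower in GPI against Sham (median 0.10), and 4 higher and 2 lower in GMTT against GPI (median -0.045). Under TMM 40.1% of all genes were called higher and 48.1% lower in GPI against Sham, and 45.7% and 40.2% in GMTT against GPI. With library totals alone 23.9% of all called genes were higher in GPI against Sham and 79.2% in GMTT against GPI. Flt1, the VEGF receptor that also acts as a decoy, averaged 27.8 ± 0.795 CPM in GMTT, 203 ± 3.24 CPM in GPI and 19.3 ± 1.43 CPM in Sham. Kdr, the main signalling receptor of Vegfa on endothelium, averaged 44.2 ± 1.77 CPM in GMTT, 98.0 ± 2.05 CPM in GPI and 37.4 ± 0.386 CPM in Sham. It fell in GMTT against GPI under TMM (-1.15, SE 0.05), a call lost with library totals alone (-0.045, adjusted p = 0.439). The rise of Flt1 in GPI against Sham (3.40, SE 0.06) was thus larger than that of Kdr (1.39, SE 0.06), and the difference between these 2 fold changes was not tested. Nrp1, a co-receptor, rose in GPI against Sham (0.72) and fell in GMTT against GPI (-0.76) under TMM, and both signs turned with library totals alone. Of 11 tested endothelial markers, which include Kdr, 10 were higher and 1 lower in GPI against Sham (median 1.40), and 8 higher and 3 lower with library totals alone (median 0.30). Their summed level was 536 to 574 CPM in GMTT, 1094 to 1145 CPM in GPI and 435 to 456 CPM in Sham. As a share of counts they took 0.0687 to 0.0745% in GMTT, 0.0656 to 0.0691% in GPI and 0.0560 to 0.0583% in Sham, and their part in the receptor values was not tested.

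For adrenomedullin, Calcrl, the receptor core, rose in GPI against Sham (1.56, SE 0.09), as did the scavenging receptor Ackr3 (2.23, SE 0.08). Ramp1, which turns Calcrl mainly into the receptor of another peptide, rose too (1.19, SE 0.10), and all 3 fell in GMTT against GPI. With library totals alone Ramp1 lost both calls (0.10, adjusted p = 0.329, and -0.12, adjusted p = 0.235), Calcrl lost its fall in GMTT against GPI (-0.15, adjusted p = 0.0936), and Ackr3 kept its calls. Ramp3, a partner that turns Calcrl into an adrenomedullin receptor, went the other way, at 8.68 ± 1.27 CPM in GMTT, 0.414 ± 0.141 CPM in GPI and 9.09 ± 1.01 CPM in Sham. It fell in GPI against Sham (-4.44, SE 0.26) and rose in GMTT against GPI (4.38, SE 0.26). Ramp2, the other such partner, had no row.

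A wider list of 34 other hypoxia-inducible genes, of which 33 were tested, moved in both directions as the 10 did. In GPI against Sham 22 rose and 10 fell (median 1.63), in GMTT against GPI 9 rose and 19 fell (median -0.99), and in GMTT against Sham 25 rose and 4 fell (median 0.41). Of all genes tested, 40.1% were called higher and 48.1% lower in GPI against Sham. These shares were 45.7% and 40.2% in GMTT against GPI, and 29.5% and 28.3% in GMTT against Sham. With library totals alone, 18 of the list rose and 14 fell in GPI against Sham, where 23.9% of all called genes were higher. In GMTT against GPI 17 rose and 14 fell under that scaling, where 79.2% of all called genes were higher. In GPI against Sham the largest fold change of the list under TMM was that of Ppp1r3c, a glycogen-targeting subunit of protein phosphatase 1, at 7.32 (SE 0.08), beside -4.26 (SE 0.06) in GMTT against GPI and 3.06 (SE 0.10) in GMTT against Sham. Vldlr, a lipoprotein receptor, rose in GPI against Sham (3.91, SE 0.07) and fell in GMTT against GPI (-2.95, SE 0.06). Cxcr4, the chemokine receptor that holds blood cells in marrow, fell in GPI against Sham (-5.17, SE 0.09) and rose in GMTT against GPI (4.77, SE 0.09). The glycolytic enzymes Pgk1 and Ldha were among the 4 smallest p-values in GMTT against Sham, where they rose by 0.66 (SE 0.04) and 0.64 (SE 0.04). Slc2a3, Bnip3l, Car12, P4ha2, Egln1 and Egln2 each stand in 2 of these lists, so the list counts are not separate.

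For each member, the genes with the most similar pattern were sought among 9273 tested genes. Their log2 CPM averaged 3 or more, they had a proper symbol, and they were neither members nor mitochondrially encoded. Likeness was the root mean square difference of log2 CPM over the 9 libraries after each gene was centred on its Sham mean. The likeness measures below are in log2 units. Vegfa lay nearest to Gstm7 (0.083) and Atp1b1 (0.112), and Bnip3 to Lpl (0.0925) and Aldh5a1 (0.131). Egln3 lay nearest to Dab2ip (0.0636) and Heyl (0.0647), and Pdk1 to Nfe2l1 (0.0689) and Dlc1 (0.0739). Among the members that were low in GPI, Ndrg1 lay nearest to Pfkp (0.0495) and Aprt (0.0655), Slc2a1 to Sfrp2 (0.109) and Zswim6 (0.110), and Car9 to Fchsd2 (0.122) and Tcf20 (0.123). P4ha1 lay nearest to Kank1 (0.0615) and Cd1d1 (0.0625). For the low genes Adm and Ankrd37 the nearest were Farp2 (0.234) and Oard1 (0.187). Genes at the low level of Adm, Ankrd37 and Car9 were left out of the search, and low counts widen this measure. The larger distances of these members therefore cannot show whether closer matches exist.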

How the data were processed

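The deposited files hold, per gene, whole read counts and FPKM. RNA was isolated with TRIzol, enriched by poly(A) and made into dUTP strand-specific libraries for Illumina paired-end sequencing, per the labels' protocols. The submitters' processing notes name the build mRatBN7.2. The sources used here name no aligner, no counter, no strand setting and no rule for multiply matched reads, so members that share sequence with copies or overlap genes on the other strand carry that uncertainty. The authors' FPKM is the count divided by gene length and by a library constant of 1.29 to 1.30 of the total in GMTT, 0.598 to 0.608 in GPI and 1.31 to 1.32 in Sham, so it already holds a scaling between libraries.

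Counts of all 31125 gene rows (8652 had no count) were filtered with a minimum count of 10, which left 15936 genes, and tested with edgeR 4.0.16 in R 4.3.3 (TMM, quasi-likelihood F test, 2-sided, all 9 libraries in 1 model of 3 groups), with Benjamini-Hochberg adjustment over all genes tested. Each SE is the log2 fold change over the square root of F. Variation between libraries beyond that of counting had a median coefficient of 5.09%. FPKM were tested as log2(FPKM + 1) and log2(FPKM + 0.1) with limma 3.58.1, on which fold changes of low genes are understated, and counts with DESeq2 1.42.0. Further alternatives were other scalings, no filter, at least 5 CPM in 3 libraries, the 6 libraries of a contrast, a replicate block and leaving out each library. Replicates of a group differed by 1.94 to 4.88 chi-square per degree of freedom, so they were not copies of each other. Each counted as 1 sample, though this measure cannot show that they are separate rats. The labels place 3 rats in each group without naming pooling, so the p-values speak of library spread, which may be technical.

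The members and the gene lists were chosen with earlier results of these data known. Lists were matched by symbol, and 7 symbols had no row (Ndrg3, Ramp2, Myh1, Mylpf, Hba-a2, Hbb-bs and Cldn5). Of the members' neighbours, Rbx1, Epo and Adm2 were in the table and not tested. The genes named are the 10 members, 8 HIF regulators, the tested relatives and receptors, the 4 smallest p-values of the wider list in a comparison, and the 2 most similar patterns to a member. Figures were drawn with matplotlib 3.10.9. Promoter sequences are from RefSeq (GRCr8), with Ndrg1 named only.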

Additional observations from a re-analysis of the deposited data

How the results depend on the processing

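Across the alternatives run, the members' directions and calls mostly held, and the exceptions follow; the cause was not tested. With library totals alone in place of TMM, P4ha1 turned to -0.062 (adjusted p = 0.317) in GPI against Sham and to 0.42 in GMTT against GPI, and Adm to 0.26 in GMTT against GPI. Under that scaling Adm also lost its call in GPI against Sham (0.33, adjusted p = 0.31). Ankrd37 gained a call there in GMTT against GPI (1.78, adjusted p = 1.87e-05). Genes called higher were then 3521 in GPI against Sham, and 11503 were higher and 3016 lower in GMTT against GPI, where 5 members rose. Of called genes, 23.9% were then higher in GPI against Sham (45.5% under TMM) and 79.2% in GMTT against GPI (53.2% under TMM). Asking also for a 2-fold change left 4257 genes higher and 5028 lower, with 1 member lower, in GPI against Sham, 4558 higher and 3895 lower in GMTT against GPI, and 1465 higher and 389 lower, with 2 members higher, in GMTT against Sham. Asking for at least 5 CPM in 3 libraries kept 7 members, of which 2 fell in GPI against Sham, since the 3 low members were not tested. Leaving out each library in turn gave -0.052 to 0.17 for Car9 in GMTT against Sham, which crosses 0 without Sham replicate 3 (adjusted p = 0.889), and 0.35 to 0.83 for Ankrd37 in GMTT against GPI. Adm passed in GMTT against Sham without GMTT replicate 2 (0.75, adjusted p = 0.0491). Ankrd37 lost its call in GPI against Sham without Sham replicate 3 (-0.81, adjusted p = 0.0509). It passed in GMTT against GPI without GMTT replicate 1 or without GMTT replicate 2. Ankrd37 also passed in GMTT against GPI with limma on log2(FPKM + 1) (0.23, adjusted p = 0.0348) and log2(FPKM + 0.1) (0.55, adjusted p = 0.028). Deviations from the group mean correlated at -0.146 to 0.0614 between same-numbered libraries and at -0.085 to 0.118 between differently numbered ones. With 3 libraries per group this cannot tell whether same-numbered libraries are paired. A replicate block gave 6342 higher and 7618 lower genes in GPI against Sham. It gave 7222 and 6352 in GMTT against GPI, and 4525 and 4290 in GMTT against Sham, and changed no member's call. Depth limits Car9, Ankrd37 and Adm, which had 4 to 34 counts per library.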
